A study of Caenorhabditis elegans with 16 samples.

Results

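Serpins are protease inhibitors that present a flexible loop as bait to a protease and, once cut, trap the enzyme in an inactive complex. In *C. elegans* they carry the name srp, and most are thought to act inside cells. SRP-6 is known to protect worms from necrotic death by holding back cysteine proteases released from lysosomes, and SRP-2 inhibits both granzyme-like serine proteases and lysosomal cysteine proteases in vitro. Tunicamycin (TM) blocks the first step of N-glycosylation and so loads the endoplasmic reticulum (ER) with misfolded glycoproteins. The question put to these data was whether the rise of *srp-7* transcript under TM was shared by the other serpin genes.

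The serpin genes were all rows whose name is srp- plus a number, and they came to 7 of 8347 named genes. Serpin genes absent from the table are not covered, so the family below means these 7. *srp-7* was singled out because of its own rise under TM in WT animals, so its values in every comparison that holds the WT TM libraries are a description, with no test. The other members were chosen by name.

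The libraries came from whole adult animals at day 1, placed for 6 hr on plates with vehicle or with 10 µg/mL TM. WT (N2) animals and *osm-3(dh441)IV* mutants were each measured on both, with 4 libraries per group and 16 in all. The *dh441* allele carries a premature stop codon in a kinesin gene needed for the sensory cilia, and it was recovered from a mutagenesis screen for TM resistance, so it stands for 1 mutant strain. The labels do not say what the vehicle was, or whether the replicates were separate cultures, so p-values measure only the spread between these libraries.

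Library depth ranged from 4173301 to 8144875 reads over the named genes. The *osm-3* transcript was not analysed here, so the genotype labels were not checked on the mutated gene itself. Genes of oocytes and yolk (5 of 10 on the list were in the table: *vit-2*, *oma-1*, *cpg-1*, *cpg-2* and *egg-1*) were at 0 in no group, and their summed normalized counts ranged from 161554 to 189362 in WT vehicle, 114646 to 192446 in WT TM, 162178 to 220656 in *osm-3* vehicle and 81583 to 192223 in *osm-3* TM. Sperm genes differed by genotype. The 10 msp- genes summed to 808 to 1287 normalized counts in WT vehicle and 692 to 992 in WT TM, against 3419 to 5699 in *osm-3* vehicle and 2987 to 6464 in *osm-3* TM, and 9 of the 9 tested were higher in *osm-3* with either treatment. Cuticle collagens (col-) also differed, with 37 of the 40 tested called higher in *osm-3* under TM and 8 on vehicle. With TM in WT 5 of the 40 were called lower (median difference of the 40, -0.31), while in *osm-3* 0 were called. Of all 4115 genes tested, 19.2% were called between genotypes under TM and 10.6% on vehicle (limma adjusted p under 0.05). For TM against vehicle the shares were 1.56% in WT and 0.0729% in *osm-3*. The part of the collagen change in the serpin values of WT was not tested. Whole animals were measured, so fewer cells of a type and less RNA per cell cannot be told apart. WT TM replicate 4 had a read on 92.2% of 752 genes whose median over the libraries was 0 reads, against 13.2% to 41.5% in the other libraries.

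All 7 serpin genes lie on chromosome V (WBcel235, positions from the Ensembl annotation). *srp-1* (C05E4.3, 753283 to 755124) and *srp-2* (C05E4.1, 762640 to 764596) sit 7515 bases apart on the plus strand. *srp-6* (C03G6.19, 7384232 to 7386102) is on the minus strand. *srp-7* (F20D6.4, 8179126 to 8183442) and *srp-8* (F20D6.3, 8183684 to 8185879) run in the same direction with 241 bases between them. *srp-9* (F09C6.5, 16894230 to 16895553) and *srp-10* (F09C6.4, 16896358 to 16897728) are annotated as pseudogenes and face in opposite directions, 804 bases apart. *srp-7* is the member with the most annotated products, 6 transcripts in Ensembl and 4 proteins in RefSeq, while *srp-1*, *srp-6* and *srp-8* have 1 transcript each. The gene-level values used here do not tell the *srp-7* isoforms apart, and reads shared between family members could have been split between them by the counting, which was not tested.

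*srp-7* was the most abundant serpin transcript in all 4 groups. Divided by exon length, in normalized counts per kb (mean ± SD, n = 4), its level in WT vehicle was 1389 ± 59.9, followed by *srp-6* at 284 ± 27.7, *srp-1* at 130 ± 22.1, *srp-2* at 108 ± 25.8 and *srp-8* at 22.3 ± 8.7. The ranges of *srp-1* (113 to 162) and *srp-2* (91.0 to 146) overlapped, so these neighbours in the order did not differ beyond their spread. In the WT TM group the per-kb level of *srp-7* was 4782 ± 1454, that of *srp-6* 335 ± 34.5, that of *srp-2* 140 ± 26.2, that of *srp-1* 133 ± 15.0 and that of *srp-8* 34.7 ± 8.4. *srp-2* and *srp-1* again overlapped. In *osm-3* TM the order was *srp-7* at 1483 ± 216, *srp-6* at 362 ± 54.2, *srp-2* at 132 ± 31.7, *srp-1* at 127 ± 23.8 and *srp-8* at 53.3 ± 15.3 normalized counts per kb.

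The deposited values are on a log2 scale that flattens weakly expressed genes, on which a count of 0 reads is 6.68. On this scale *srp-7* stood at 11.31, 11.36, 11.40 and 11.27 in the WT vehicle libraries and at 12.93, 12.99, 13.53 and 12.51 in the WT TM libraries (replicates 1 to 4). The corresponding raw reads were 2659, 2531, 2317 and 2234 on vehicle, and 8773, 9636, 13051 and 5915 on TM. Every TM library lay above every vehicle library, with replicate 3 highest and replicate 4 lowest. The mean difference was 1.66 ± 0.15 log2 units (SE, 95% interval 1.34 to 1.98), and the mean normalized count was 3.44-fold higher, at 8211 ± 2496 against 2385 ± 103 (SD, n = 4). Among the 4115 genes tested this difference was the 3rd highest. The groups of 176 genes (4.28%) did not overlap in this comparison. Because *srp-7* was singled out on these libraries, its interval, rank and lack of overlap follow in part from that choice. Left out in turn, the libraries gave a difference of 1.48 (without WT TM replicate 3) to 1.82 (without WT TM replicate 4, the library with reads on otherwise silent genes).

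*srp-7* varied more between WT TM libraries than between those of any other group. Its SD was 0.057 log2 units in WT vehicle and 0.076 in *osm-3* vehicle, 0.20 in *osm-3* TM and 0.42 in WT TM, where normalized counts ran from 5639 to 11627. Between libraries that share a replicate number, the TM minus vehicle difference in WT was 1.62, 1.64, 2.13 and 1.24 log2 units for replicates 1 to 4.

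**Figure D1:**
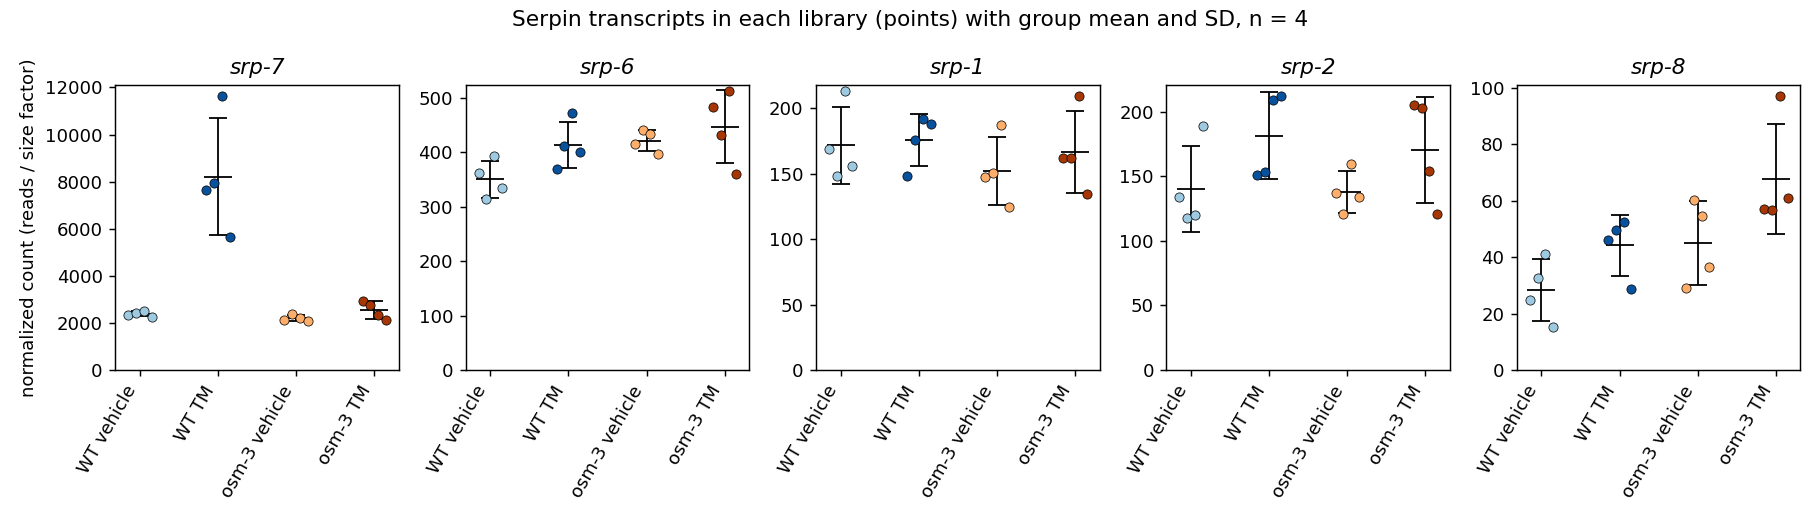
Normalized counts (reads divided by the library's size factor, linear axes from 0, a separate scale for each gene) of 5 serpin genes in each library, with points for libraries and bars for the mean and SD of 4. The WT TM libraries of *srp-7* (5639 to 11627) lie above all its other libraries, and for the other 4 genes the WT TM and WT vehicle libraries overlap.

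Of the other serpin genes 3 were tested in WT, and 0 passed. In the fit without a block, 0 of the 3 had an adjusted p under 0.05 (limma), where 1.56% of all genes (64 of 4115) were called. At that share 0 of 3 says little about these genes. By limma 0 also had an unadjusted p under 0.05, and voom on the recovered reads called 0. The share of all genes called by voom is not given, here or for the later voom counts. With the replicate number as a block within genotype the calls over all genes came to 5.93% and those among the 3 serpins stayed at 0, with 2 of the 3 at an unadjusted p under 0.05. These were *srp-2* (95% interval 0.020 to 0.38, limma adjusted p = 0.26) and *srp-6* (0.022 to 0.31, limma adjusted p = 0.23). The share of all genes at that unadjusted p was not counted, so 2 of 3 has no background beside it.

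*srp-2* encodes the inhibitor of granzyme-like and lysosomal proteases named above. Its log2 values were 8.25, 8.16, 8.17 and 8.51 in WT vehicle and 8.34, 8.35, 8.60 and 8.61 in WT TM. The groups overlapped, through vehicle replicate 4. The difference was 0.20 ± 0.10 (SE, 95% interval -0.014 to 0.41, limma adjusted p = 0.63), and the mean normalized count was 1.30-fold higher. TM exceeded vehicle in 4 of 4 same-numbered pairs, by 0.090 to 0.42.

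*srp-6*, the inhibitor that guards against necrosis, had log2 values of 9.10, 8.96, 9.18 and 9.02 in WT vehicle and 9.12, 9.23, 9.37 and 9.20 in WT TM. The TM libraries other than replicate 1 lay above all vehicle libraries. The difference was 0.17 ± 0.083 (SE, 95% interval -0.0091 to 0.34, limma adjusted p = 0.62), a 1.18-fold difference of mean normalized counts, with TM higher in 4 of 4 pairs. When libraries were weighted by their agreement with their group (weights 0.252 to 5.11), the difference was 0.20 and passed the threshold (limma adjusted p = 0.032), in a fit that called 14.5% of all genes.

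*srp-1* had the smallest difference of the family in WT. Its log2 values were 8.42, 8.32, 8.61 and 8.36 in WT vehicle and 8.32, 8.45, 8.52 and 8.51 in WT TM, with TM higher in 2 of 4 pairs. The difference was 0.022 ± 0.087 (SE, 95% interval -0.16 to 0.21, limma adjusted p = 0.995).

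*srp-8* is the gene just downstream of *srp-7*. Its reads numbered 28, 34, 38 and 15 in WT vehicle and 53, 60, 59 and 30 in WT TM. Its mean over all libraries, 7.61, fell 0.067 log2 units below the minimum for testing, which is the reason it is not among the genes tested. In the fit with no minimum (8347 genes, of which 1.07% were called), *srp-8* differed by 0.19 ± 0.092 (SE, limma adjusted p = 0.68), and its mean normalized count was 1.56-fold higher. TM exceeded vehicle in 4 of 4 pairs, and the groups overlapped through TM replicate 4. On the scale of log2(normalized count + 1), which flattens low counts less, the *srp-8* difference was 0.67 (limma adjusted p = 0.48).

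The 2 pseudogenes were near 0. *srp-9* had 23 reads over all 16 libraries, 17 of them in WT TM replicate 4, and 0 reads in 11 libraries. *srp-10* had 20 reads, 8 of them in the same library. No fold is given for either, since without that library *srp-9* had at most 2 and *srp-10* at most 3 reads in any library.

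Set side by side, the TM difference of *srp-7* in WT exceeded that of *srp-1* by 1.64 log2 units, of *srp-6* by 1.49, of *srp-8* by 1.47 and of *srp-2* by 1.46. Because the log2 scale shrinks changes of low genes, the same comparison was made on log2(normalized count + 1). There the *srp-7* difference corresponded to 3.33-fold (95% interval 2.64 to 4.20), *srp-2* to 1.30-fold (0.985 to 1.72), *srp-6* to 1.18-fold (0.994 to 1.40) and *srp-1* to 1.03-fold (0.814 to 1.30). *srp-8*, on the same scale in a fit that takes it in, corresponded to 1.59-fold (1.02 to 2.47, unadjusted p = 0.040, limma adjusted p = 0.48), and its gap to *srp-7* narrowed to 1.07. With voom *srp-8* was 1.62-fold higher (1.02 to 2.58, limma adjusted p = 0.51). Since *srp-7* was singled out on these libraries, a gap between it and the others follows in part from that choice, and none was tested.

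**Figure D2:**
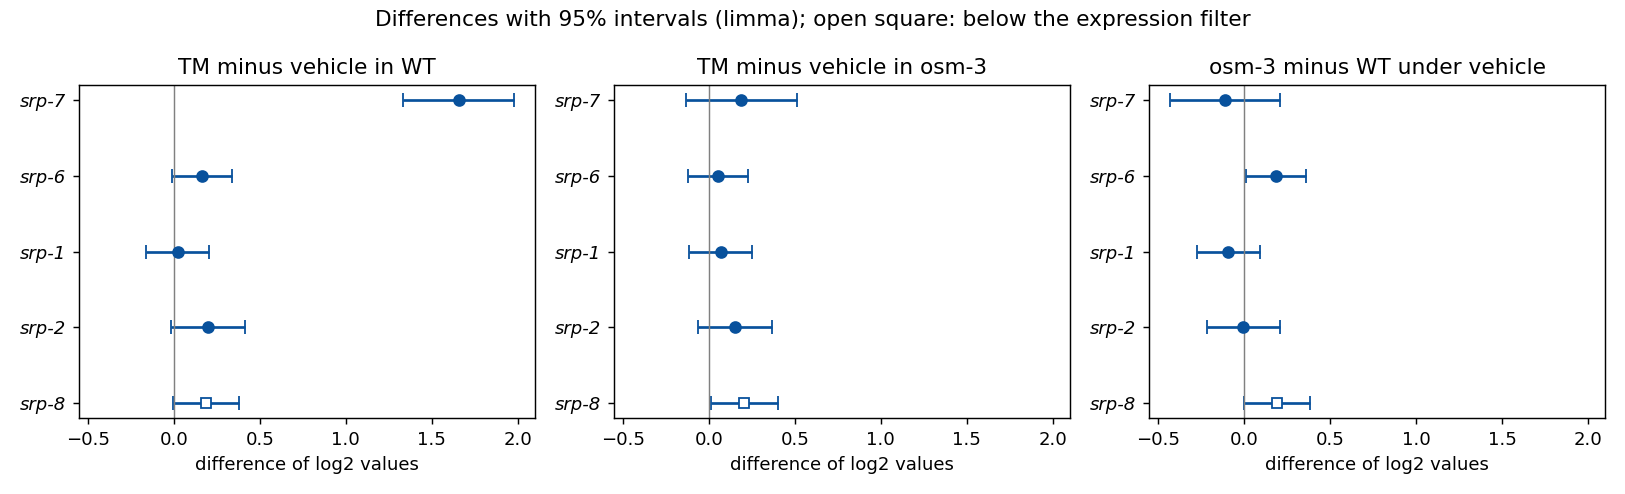
Differences of log2 values with 95% intervals from limma for 5 serpin genes, in 3 panels for TM minus vehicle in WT, TM minus vehicle in *osm-3* and *osm-3* minus WT under vehicle, with an open square for *srp-8*, which was below the expression minimum. In WT, *srp-7* sits at 1.66 and the others between 0.022 and 0.20, and in *osm-3* all 5 lie between 0.054 and 0.21.

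Summed over the 7 genes, serpin transcripts came to 3077 ± 137 normalized counts in WT vehicle and 9033 ± 2543 in WT TM (SD, n = 4). Without *srp-7* the sums were 692 ± 63.4 and 822 ± 89.6. *srp-7* made up 77.5% of the family's normalized counts in WT vehicle and 90.9% in WT TM, with 76.5% to 79.8% and 86.8% to 92.6% in single libraries. In *osm-3* its share was 74.3% on vehicle and 74.9% on TM. *srp-6* took the second largest share in all 4 groups, at 11.4% and 4.58% in WT vehicle and WT TM and at 14.3% and 13.2% in *osm-3* vehicle and *osm-3* TM.

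**Figure D3:**
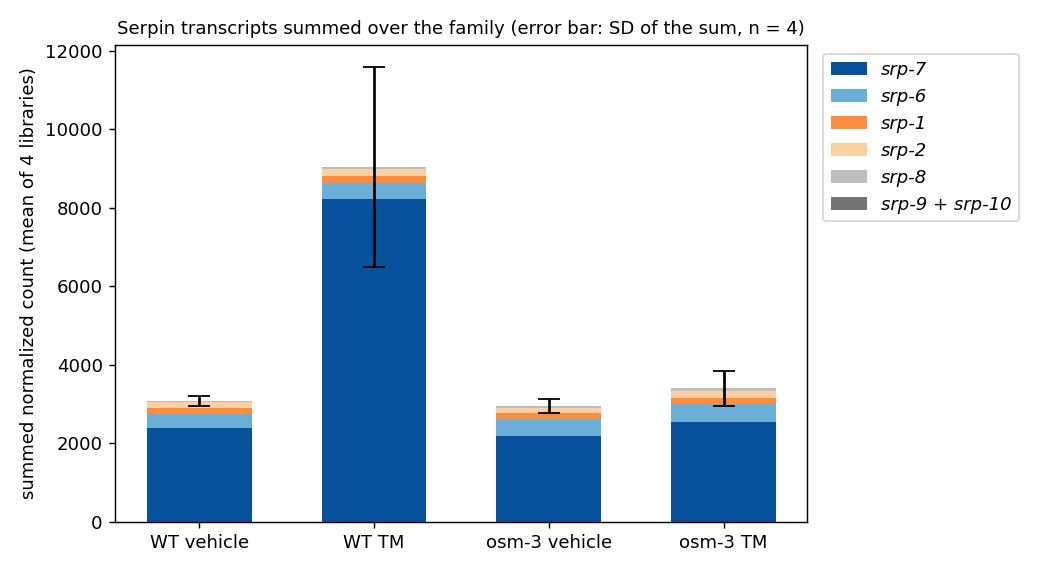
Summed normalized counts of the serpin genes by group (mean of 4 libraries, bars from 0, colours for genes, error bar for the SD of the sum). The WT TM bar reaches 9033 and the other 3 lie between 2954 and 3399, with the *srp-7* portion accounting for most of the height in each.

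In *osm-3* the serpins did not pass the test. Of the 4 tested genes, *srp-7* included, 0 were called by limma, where 0.0729% of all genes (3 of 4115) were called. At that share 0 of 4 says little about these genes. By limma 0 had an unadjusted p under 0.05, and voom called 0. Groups of 2.84% of all genes did not overlap. With the replicate block within genotype 8.75% of all genes and 0 of the 4 serpins were called.

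The *srp-7* values were 11.19, 11.32, 11.24 and 11.14 in *osm-3* vehicle and 11.62, 11.53, 11.32 and 11.19 in *osm-3* TM. Replicates 1 and 2 on TM lay above all vehicle libraries, replicates 3 and 4 did not. The difference was 0.19 ± 0.15 (SE, 95% interval -0.13 to 0.51, limma adjusted p = 0.49), with mean normalized counts of 2546 ± 371 on TM and 2195 ± 127 on vehicle (SD, n = 4). The SE is pooled over all 4 groups, WT TM included. Fitted on the *osm-3* groups alone it was 0.12 (95% interval -0.074 to 0.45, limma adjusted p = 0.49). TM was higher in 4 of 4 same-numbered pairs, by 0.43, 0.21, 0.074 and 0.044 log2 units. With library weights, in which *osm-3* TM replicate 4 had the lowest weight, the difference was 0.36 and passed the threshold (limma adjusted p = 0.015), as did that of *srp-2* (0.27, adjusted p = 0.010), in a fit that called 34.6% of all genes. Without *osm-3* TM replicate 4 the *srp-7* difference was 0.26 (limma adjusted p = 0.22) and 19.3% of all genes were called.

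The other serpins of *osm-3* animals differed by 0.15 for *srp-2* (95% interval -0.063 to 0.36, limma adjusted p = 0.42), 0.069 for *srp-1* (-0.11 to 0.25, adjusted p = 0.67) and 0.054 for *srp-6* (-0.12 to 0.23, adjusted p = 0.72). *srp-1* was higher on TM in 4 of 4 pairs, by 0.055 to 0.093, and *srp-2* and *srp-6* in 2 of 4 each. *srp-8* reads were 33, 73, 32 and 38 on vehicle and 69, 55, 68 and 58 on TM, a 1.51-fold difference of mean normalized counts and 0.21 ± 0.092 on the log2 scale in the fit with no minimum, where 0.0359% of genes were called (limma adjusted p = 0.49, unadjusted p = 0.038). TM exceeded vehicle in 3 of 4 *srp-8* pairs. Its TM replicate 3 stood apart, at 96.9 normalized counts against 56.6 to 60.8 in the other TM libraries. The gap between *srp-7* and each other member passed no test in *osm-3*. The *srp-7* difference exceeded that of *srp-1* by 0.12, *srp-2* by 0.038 and *srp-6* by 0.14, and was below that of *srp-8* by 0.017. Exact two-sided permutation tests of these 4 gaps gave p = 0.43, 0.63, 0.23 and 0.91 (adjusted over the 4 gene pairs, 0.84, 0.84, 0.84 and 0.91). They did not pair libraries by replicate number, and 4 libraries against 4 can give no p below 0.0286. On log2(normalized count + 1) the *srp-7* difference minus that of the other gene was 0.075 for *srp-1*, 0.13 for *srp-6*, -0.074 for *srp-2* and -0.40 for *srp-8*, so the direction against *srp-2* turned.

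The *srp-7* response was thus 1.47 ± 0.22 log2 units smaller in *osm-3* than in WT (SE, 95% interval of the difference of responses -1.92 to -1.01), the 3rd lowest of 4115 genes. The same interaction term was 0.047 for *srp-1*, -0.050 for *srp-2* and -0.11 for *srp-6* (limma adjusted p = 0.93, 0.94 and 0.90). By limma 0 of 3 passed, where 0.486% of all genes were called, and 0 had an unadjusted p under 0.05. With voom 0 were called. For *srp-8* it was 0.020 in the fit with no minimum (0.264% of genes called, limma adjusted p = 0.99). The WT TM libraries, whose *srp-7* values singled this gene out, enter the response in WT, the interaction and the comparison of genotypes under TM, so these 3 *srp-7* values are not independent of each other.

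Under TM the *srp-7* level of *osm-3* was lower than that of WT by 1.58 log2 units (95% interval of the difference -1.90 to -1.26), with the mean normalized count 3.23-fold higher in WT and no overlap, the 3rd lowest of all genes. As *srp-7* was singled out on the WT TM libraries, these values follow in part from that choice. In this comparison 19.2% of all genes were called by limma and 16.1% did not overlap. *srp-1*, *srp-2* and *srp-6* differed by -0.045, -0.054 and 0.076 (limma adjusted p = 0.71, 0.70 and 0.51), so 0 of the 3 passed, 0 had an unadjusted p under 0.05, voom called 0, and their groups overlapped. *srp-8* was higher in every *osm-3* TM library than in any WT TM library, at 56.6 to 96.9 against 28.6 to 52.6 normalized counts. The difference was 0.21 ± 0.092 in the fit with no minimum (limma adjusted p = 0.14, 14.2% of genes called), and the mean normalized count was 1.54-fold higher.

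On vehicle, where *srp-7* could be tested, the genotypes differed by -0.11 for *srp-7* (95% interval -0.43 to 0.21, limma adjusted p = 0.74). That interval rests on a spread pooled over all 4 groups, WT TM included, where *srp-7* varied most. Fitted on the vehicle groups alone, the *srp-7* interval was -0.27 to 0.044 (limma adjusted p = 0.34). For *srp-1* the difference was -0.092 (adjusted p = 0.61) and for *srp-2* it was -0.0042 (adjusted p = 0.99). By limma and by voom 0 of the 4 tested serpins passed, and *srp-6* was the 1 with an unadjusted p under 0.05. The share of all genes at that p was not counted. In *osm-3* vehicle the *srp-6* libraries stood at 9.24, 9.30, 9.28 and 9.19, all above the WT vehicle libraries given above. The *srp-6* difference was 0.19 ± 0.083 (95% interval 0.013 to 0.36, unadjusted p = 0.037, limma adjusted p = 0.18), and the mean normalized count was 1.20-fold higher. Groups of 20.3% of all genes did not overlap here and 10.6% were called. With library weights *srp-6* passed (0.18, limma adjusted p = 0.0084) among 34.5% of all genes called, and with the replicate block over all libraries its adjusted p was 0.063. *srp-8* was 1.59-fold higher in *osm-3* by mean normalized count, with overlapping groups (limma adjusted p = 0.26 with no minimum, 8.54% of genes called). The part of the sperm and collagen gene differences between the genotypes in these values was not tested.

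Across all 16 libraries, the 5 tested genes whose log2 values followed *srp-7* most closely were F41B4.3 (Pearson r = 0.98), *nlp-28* (0.98), C34C12.4 (0.98), *gale-1* (0.97) and C14B9.2 (0.97). *nlp-28* encodes a peptide of the epidermal antimicrobial *nlp-29* cluster, *gale-1* a UDP-galactose epimerase and C14B9.2 a protein disulphide isomerase family member. The libraries fall into 4 groups, of which WT TM stands apart for all 6 genes, so these values mainly describe that shared separation. Their TM minus vehicle differences in WT were 1.29 (F41B4.3), 1.31 (*nlp-28*), 0.79 (C34C12.4), 1.82 (*gale-1*) and 1.02 (C14B9.2), and in *osm-3* they were 0.21, 0.18, 0.12, 0.29 and 0.22. With the group means removed, the correlations with *srp-7* were 0.75, 0.73, 0.69, 0.51 and 0.51, values that the choice of these genes over the same libraries in part sets.

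The ER chaperone genes changed in the same group. *hsp-4* (BiP) rose by 1.02 log2 units in WT (limma adjusted p = 1.8e-04) and *hsp-3*, the other BiP gene, by 0.72 (adjusted p = 0.0059). These were 2 of the 4 ER stress genes of the list that were in the table, where 1.56% of all genes were called. The others found there, *ire-1* (0.033, limma adjusted p = 0.995) and *atf-6* (-0.092, adjusted p = 0.98), did not pass in WT. *xbp-1* and *pek-1*, also on the list, were not in the table. In *osm-3* 0 of 4 passed, where 0.0729% of all genes were called. The median difference of the 4 was 0.38 in WT against -0.016 for all genes. Over the libraries *hsp-4* correlated with *srp-7* at r = 0.90, and with the group means removed at -0.11, and *hsp-3* at 0.87 and 0.11. In WT TM *hsp-4* stood at 13.71, 13.34, 13.48 and 13.49, with replicate 1 highest, and *hsp-3* at 14.50, 14.15, 14.52 and 14.26, with replicate 3 highest as for *srp-7*.

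**Figure D4:**
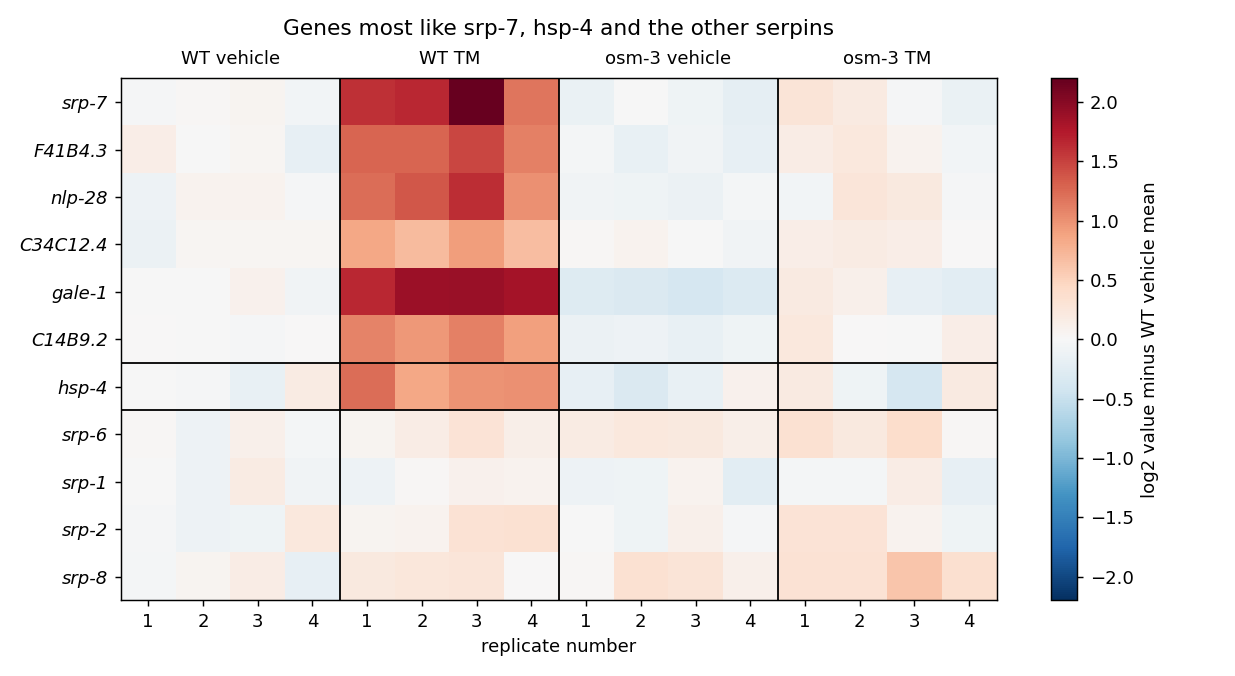
Log2 values minus each gene's WT vehicle mean (colour) in the 16 libraries, for *srp-7* and the 5 genes most like it (top), *hsp-4* (middle) and the other serpins (bottom), with replicate numbers along the horizontal axis. The top rows and *hsp-4* are dark in the WT TM columns, whereas the serpins at the bottom remain pale there, with differences of 0.022 to 0.20 on average.

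The remaining serpins had other companions. For *srp-6* they were *egal-1* (r = 0.92), *phy-2* (0.90), a prolyl hydroxylase subunit for collagen, and *lec-4* (0.89), a galectin. For *srp-1* they were C46C2.5 (0.94), F37H8.5 (0.92) and D1086.11 (0.92). For *srp-2* the closest were *bre-1* (0.72), an enzyme of fucose synthesis, F41E6.12 (0.68) and *cima-1* (0.65). Within the family the closest pair after removal of group means was *srp-1* with *srp-6* (r = 0.82, and 0.46 before), although these lie far apart on the chromosome. The adjacent pair *srp-1* and *srp-2* had 0.23 and 0.30, and the adjacent pair *srp-7* and *srp-8* had 0.36 and 0.073. All are correlations over 16 libraries that share their depth and normalization, given as descriptions.

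Within 20 kb of *srp-7* the annotation places 16 genes, of which 14 are protein-coding and 9 were in the table, *srp-8* among them. The 8 neighbours other than *srp-8* differed by -0.19 to 0.076 log2 units between TM and vehicle in WT and by -0.17 to 0.26 in *osm-3*, and in the fit with no minimum the lowest adjusted p (limma) was 0.60 and 0.33. Of these neighbours only F20D6.5 and F20D6.11 were expressed above the minimum, and the log2 scale flattens changes of the rest. By mean normalized count the TM over vehicle fold in WT ran from 0.734 (F20D6.8, mean count 28.3) to 2.76 (F20D6.1, mean count 1.58). F20D6.5, ahead of *srp-7* on the same strand, differed by -0.19 in WT under TM (limma adjusted p = 0.51) and was higher in *osm-3* than in WT by 0.47 on vehicle (adjusted p = 0.0013) and 0.64 under TM (adjusted p = 4.4e-05). F20D6.11 differed by 0.040 in WT (adjusted p = 0.995).

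Of a list of protease genes, the kind of enzyme that serpins act on, 18 were in the table and 12 were tested (4 cysteine cathepsins, 5 aspartyl proteases, which are not serpin targets but work beside calpains in necrosis, and 1 each of the calpains, the caspases and the trypsin-like proteases). No cystatin, the cysteine protease inhibitors beside the serpins, was in the table. In WT under TM 0 of the 12 were called higher and 1 was called lower, the aspartyl protease *asp-13*, which fell by 0.87 (limma adjusted p = 0.0024), where 1.56% of all genes were called. In *osm-3* under TM 0 of 12 passed, where 0.0729% of all genes were called, a share at which 0 of 12 tells little. At an unadjusted p under 0.05 (limma) there were 3 of 12, as in WT, and the share of all genes at that p was not counted. The medians of the 12 differences were -0.13 in WT and 0.027 in *osm-3*, against -0.016 and -0.036 for all genes.

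Between genotypes, on vehicle, 3 of 12 were called lower in *osm-3*, where 10.6% of all genes were called, *asp-12* by a difference of -2.12 (limma adjusted p = 4.1e-05), the cathepsin B gene *cpr-4* by -0.64 (adjusted p = 0.0046) and *asp-6* by -0.58 (adjusted p = 0.017). Under TM 4 of 12 were called lower and 1 higher in *osm-3*, where 19.2% of all genes were called. The largest were *asp-12* at -1.42 (limma adjusted p = 0.0013), *asp-13* at 0.75 (adjusted p = 0.0014) and *cpr-4* at -0.74 (adjusted p = 9.1e-04), and the cathepsin B genes *cpr-1* and *cpr-6* were also lower. In the interaction 0 of 12 passed, where 0.486% of all genes were called, and 2 had an unadjusted p under 0.05 (limma). The share of all genes at that p was again not counted. The median difference was -0.20 on vehicle and -0.20 under TM, against -0.041 and -0.10 for all genes.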

How the data were processed

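Total RNA of whole worms was depleted of ribosomal RNA and made into stranded paired-end libraries. The authors mapped reads to WBcel235 transcripts (Ensembl) with kallisto 0.43.0, summed them per gene and applied DESeq2 1.16.1. The deposited table holds their variance-stabilized log2 values. Their 4 tables of fold changes and p-values were not used. Inverting the log2 values gave whole reads for 100% of values (tolerance 0.01), and reads divided by the size factor are the normalized counts. The table held 8348 rows, of which 1 had no gene name (0.177% to 0.531% of reads) and was left out. Loci came from an Ensembl annotation of the same build, which matched 8063 listed genes.

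Each comparison was fitted with limma 3.58.1 (R 4.3.3) on the log2 values of all 16 libraries, with 4 group means, a variance trend, 12 residual degrees of freedom and two-sided p-values adjusted by Benjamini-Hochberg over 4115 genes (mean log2 value exceeding that of 0 reads by 1 unit or more). The threshold was 0.05. The fit was also run on simulated counts with a fixed dispersion and independent libraries. These lack the pairing given below, and no result here rests on them. Exact permutation tests used SciPy 1.17.1 (Python 3.11.15). Named genes were all srp genes, the 5 genes most correlated with *srp-7* and 3 for each other tested member, listed genes within 20 kb of *srp-7*, and proteases past the threshold. Members and lists were chosen with earlier results of these data known. Same-numbered libraries deviated together within each genotype (correlations 0.25 to 0.58 in WT and 0.33 to 0.86 in *osm-3*), so pair differences are given there. The main fit and the permutation tests left this pairing out, and only the fits with a replicate block took it in. Alternatives were other filters, scales, normalizations, variance models, library weights, replicate blocks and leaving out each library, and 2 fits with a mean normalized count of at least 10, added after seeing the data to take in *srp-8*. Counting precision is limited by depth, most for *srp-8* at 15 to 73 reads per library.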

Additional observations from a re-analysis of the deposited data

Results flagged for a closer look

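Of 36 sets of 4 libraries examined (7 genes, reads and quiet genes in 4 groups), 6 had a library far from the other 3. Chance gives about 1 in 20 for measured values, a rate that does not apply to the 3 sets of *srp-9*, where the other 3 libraries are tied at 0 reads and any read stands apart. *srp-8* in *osm-3* TM replicate 3 stood at 8.03, with the other 3 between 7.73 and 7.76. The pseudogene *srp-9* stood at 7.25 in WT TM replicate 4, 6.87 in *osm-3* vehicle replicate 4 and 6.88 in *osm-3* TM replicate 2, with 0 reads in the other 3 libraries of each group. *osm-3* vehicle replicate 3 had 4173301 reads on named genes, against 7554487 to 7928703 in the rest of its group. In WT vehicle replicate 2, 41.5% of the genes that are usually silent had a read, against 21.9% to 22.6%.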

How the results depend on the processing

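The number of serpin genes past the threshold, counted without *srp-7* in the 3 comparisons that hold the WT TM libraries, stayed at 0 in all 5 comparisons under every alternative tried except library weights, which gave 1 for TM in WT (*srp-6*), 2 for TM in *osm-3* (*srp-2* and *srp-7*) and 1 for the genotypes on vehicle (*srp-6*). The replicate block, over all libraries or within genotype, changed no call and left each count at 0. The *srp-7* difference in WT stayed between 1.48 and 1.82. Signs turned only for differences near 0. With quantile normalization *srp-1* in WT was -0.0077. With library weights *srp-2* was 0.067 between genotypes under TM, 0.016 on vehicle and 0.051 in the interaction, and *srp-1* was -0.016 in the interaction. Centring on the median gave 0.010 for *srp-2* on vehicle. The *srp-8* interaction was -0.096 with voom and -0.068 on log2(normalized count + 1), the 2 fits added later. Leaving out single libraries gave -0.013 to 0.083 for *srp-1* in WT, -0.11 to 0.0072 for *srp-1* and -0.11 to 0.027 for *srp-2* between genotypes under TM, -0.042 to 0.075 for *srp-2* on vehicle, and -0.016 to 0.10 for *srp-1* and -0.13 to 0.032 for *srp-2* in the interaction. The cause was not tested. *srp-8* was below the minimum in the fits that left out a library, and the stricter minimum took in *srp-7* alone. The percentage of all genes called ranged from 0.996 to 14.5 for TM in WT, 0 to 34.6 for TM in *osm-3*, 9.10 to 40.9 and 2.87 to 34.5 between genotypes under TM and on vehicle, and 0.243 to 3.74 in the interaction.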
